A study of Schizosaccharomyces pombe with 5 samples.

Results

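The mRNAs described here encode 8 enzymes of sterol synthesis and 2 regulators of that pathway in the fission yeast Schizosaccharomyces pombe. They were taken by systematic identifier, 10 genes of the 6727 in the count files, and all 10 were found and passed the filter on low counts. The enzymes are hcs1 (SPAC4F8.14c), hmg1 (SPCC162.09c), erg9 (SPBC646.05c), erg11 (SPAC13A11.02c), erg25 (SPAC630.08c), erg31 (SPAC1687.16c), erg32 (SPBC27B12.03c) and erg5 (SPAC19A8.04). The regulators are sre1 (SPBC19C2.09) and scp1 (SPBC3B9.15c). The RefSeq product names of all 10 go with their class here, enzyme or regulator. The study immunoprecipitated Slr1p, the fission yeast homolog of the RNA-binding protein LARP1, and sequenced the RNA that came down with it (RIP-seq). There were 2 libraries from immunoprecipitation with an antibody against Slr1p (Slr1p IP), 1 from immunoprecipitation with non-immune rabbit IgG, and 2 of total RNA input extracted with hot phenol. Every library came from wild-type cells of strain yAS99, grown in YES, a rich medium, at 32 °C and cross-linked with formaldehyde. By their titles, the pairs of Slr1p IP and input libraries are biological replicates, whereas IgG was sequenced once.

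Sterol synthesis starts in the mevalonate pathway, in which HMG-CoA synthase and HMG-CoA reductase make mevalonate. Isoprenoid units are then joined into squalene, which is cyclised, demethylated and desaturated into ergosterol, the main sterol of fungal membranes. Several late steps need oxygen. In fission yeast the membrane-bound transcription factor Sre1, a homolog of mammalian SREBP, is cleaved when sterol or oxygen is low and then activates sterol genes. Scp1, the homolog of SCAP, binds Sre1 and senses sterol. Animal LARP1 binds the TOP motif, a run of pyrimidines directly after the cap of an mRNA.

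The first 20 bases of each annotated mRNA are shown because animal LARP1 recognises that end. Whether Slr1p does was not tested. They were read from RefSeq (assembly ASM294v3), which may not be the annotation behind the counts, and run 5′ to 3′ on the coding strand. Any run of at least 5 pyrimidines starting at base 1, 2 or 3 would be in capitals.
hcs1: cataaccaagatacttcgat
hmg1: acaacaacaccacgccataa
erg9: aactacaccatttaatctgc
erg11: gcgagacccaagttagcttg
erg25: atcacataaagtaacccttt
erg31: aagcaaacacctcaatggac
erg32: atggatgtcgttttgcagta
erg5: accaatacccaacgagttgg
sre1: atccattaccatactcgagc
scp1: caaaacaccaagacctgcga
None of the 10 had such a run, against 9.28% of 5075 annotated protein-coding mRNAs. With so few genes, none is not a contrast to that share. The erg32 entry begins at the start codon, so that it shows coding sequence and not the end of the mRNA. The annotated 5′ leader was 771 nt long in hmg1, 531 nt in erg11, 434 nt in sre1 and 355 nt in erg25, and between 14 and 109 nt in hcs1, erg9, erg31, erg5 and scp1.

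In the input libraries the late enzyme erg5 was the most abundant of these mRNAs and the regulators were among the least. Levels are given as CPM, counts scaled to a common library total with TMM (edgeR's correction for library composition), and between genes as CPM per kb of annotated transcript. In input erg5 stood at 632 ± 98 CPM per kb, erg25 at 372 ± 63.4, hcs1 at 289 ± 36.8, erg9 at 215 ± 12.2 and erg11 at 203 ± 5.74 (SD, n = 2 each). Below them came erg32 at 108.5 ± 19, erg31 at 51.7 ± 10.4, hmg1 at 36.5 ± 1.5, scp1 at 36.2 ± 1.25 and sre1 at 27.04 ± 1.78 CPM per kb (SD, n = 2 each). In this order only erg9 and erg11, and hmg1 and scp1, had input libraries that overlapped with their neighbour. In the Slr1p IP the order was erg5, hcs1, erg25, erg11, erg9, erg32, hmg1, sre1, scp1 and erg31, with erg31 at 17.4 ± 2.69, scp1 at 17.4 ± 0.0646 and sre1 at 19.2 ± 0.246 CPM per kb (SD, n = 2 each). The erg31 libraries overlapped those of both scp1 and sre1, and no other neighbours in that order overlapped. The order thus differed most for erg31, which was seventh in input and last in the Slr1p IP.

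Gene counts totalled between 62802923 and 65859940 in each Slr1p IP and input library and 12882920 in the IgG library. Mitochondrially encoded mRNAs took 4.73% of the IgG counts and at most 0.00154% of any other library, so the IgG library stood apart in the kinds of RNA it held. The 10 sterol genes took 0.234% and 0.212% of the counts in the Slr1p IP, 0.260% in IgG (95% Wilson interval 0.257 to 0.263%, counting error only) and 0.364% and 0.343% in input. All values are shares of a library, so a lower value after immunoprecipitation means a smaller share of that library than of input. It does not show that an mRNA was not bound. Other annotated transcripts that were also counted overlap hcs1 (a noncoding RNA on the opposite strand, over 55.7% of its length), erg32 (mis19, opposite strand, 14.3%), erg9 (pla1, opposite strand, 3.06%) and hmg1 (a noncoding RNA on the same strand, 0.608%). Opposite-strand noncoding RNAs that were not counted also overlap 80.9% of erg9, 80.8% of hmg1, 80.8% of erg5, 54.2% of erg32, 24% of erg11 and 4.52% of sre1. For scp1 there are several, the longest over 31.1%. The strand setting of the counting is unknown, so counts of genes with an opposite-strand overlap are uncertain to that extent. The same-strand overlap of hmg1 does not depend on that setting.

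The comparison of the Slr1p IP with input asks which mRNAs were over- or under-represented relative to their abundance in the cell. Sterol gene mRNAs were under-represented: 7 of 10 were lower in the Slr1p IP than in input, and 0 were higher (edgeR, Benjamini-Hochberg adjusted p under 0.05 over all genes). Over all 6376 genes tested, 34.2% were lower and 35.0% higher. No sterol gene was higher at an unadjusted p under 0.05 or by DESeq2 either. The median log2 fold change was -0.63 over the 10 genes and 0.035 over all genes tested. Both Slr1p IP libraries lay below both input libraries for 9 of the 10, against 41.3% of all genes tested, and the exception was hcs1. The count of lower genes was 5 without Slr1p IP replicate 2 and 10 without input replicate 2.

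**Figure D1:**
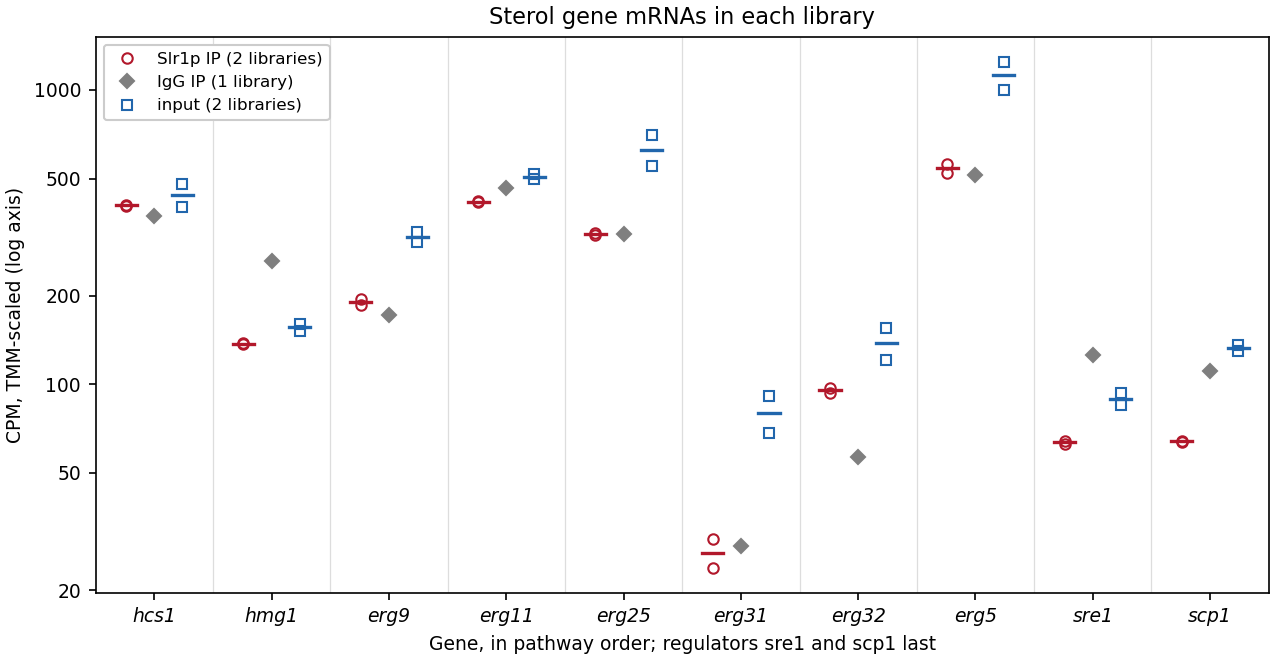
TMM-scaled CPM on a log axis for each of the 10 genes in each library, with the Slr1p IP (circles), IgG (filled diamonds) and input (squares) from left to right and short lines at the mean of each pair. Apart from hcs1, the Slr1p IP pair lies below the input pair, by the most for erg31, while IgG lies above both pairs for hmg1 and sre1.

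The mRNAs of the first steps of the pathway were not called against input with all libraries. The mRNA of hcs1, for HMG-CoA synthase, stood at 403 and 407 CPM in the Slr1p IP, against 478 and 399 CPM in input. The input libraries spanned the Slr1p IP libraries, and the difference was not called (log2 -0.11, SE 0.14, edgeR adjusted p = 0.479). Without input replicate 2, the lower of that pair, the log2 fold change of hcs1 was -0.24, and without input replicate 1 it was 0.014. The mRNA of hmg1, for HMG-CoA reductase, the regulated enzyme of the mevalonate pathway, stood at 138 and 137 CPM in the Slr1p IP, against 161 and 152 CPM in input. The groups did not overlap, but the difference was not called (log2 -0.19, SE 0.12, edgeR adjusted p = 0.171). Without input replicate 2 the log2 fold change of hmg1 was -0.23. It was called in a fit corrected for length and GC content, in which each library's trend with these transcript properties was taken out (-0.33, adjusted p = 0.0171).

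Squalene synthase, which makes the first compound committed to sterols, is encoded by erg9. Its mRNA stood at 195 and 186 CPM in the Slr1p IP, against 329.5 and 304 CPM in input, so the groups did not overlap. Its share in the Slr1p IP was 0.602 of that in input (log2 -0.73, SE 0.12, edgeR adjusted p = 6.62e-05).

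The mRNA of erg11, for the cytochrome P450 that removes the 14-alpha methyl group from lanosterol and is the target of azole antifungals, stood at 419 and 415 CPM in the Slr1p IP, against 517.5 and 497 CPM in input. The groups did not overlap, but the log2 fold change of -0.28 (SE 0.14) was not called (edgeR adjusted p = 0.0756). It was called by DESeq2 (-0.30, adjusted p = 0.0239). By edgeR its value was -0.26 without input replicate 1 and -0.31 without input replicate 2. Calls from these fits are left out, as each held a single input library.

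The other late enzymes were lower. The mRNA of erg25, for the oxidase that starts removal of the C-4 methyl groups, stood at 327 and 322 CPM in the Slr1p IP, against 701 and 550 CPM in input. It fell to 0.519 of its input level (log2 -0.95, SE 0.15, edgeR adjusted p = 3.72e-05). The mRNA of erg5, for the P450 that desaturates C-22, stood at 524 and 561 CPM in the Slr1p IP, against 1244 and 998 CPM in input. The fold relative to input was 0.484 (log2 -1.05, SE 0.17, edgeR adjusted p = 3.73e-05). For both genes the input libraries differed from each other by more than the Slr1p IP libraries did, and the groups did not overlap.

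The C-5 sterol desaturase is encoded by a pair of genes, and both mRNAs were lower in the Slr1p IP than in input. The mRNA of erg31 stood at 29.7 and 23.85 CPM in the Slr1p IP, against 91.2 and 68.5 CPM in input. It fell to 0.336 of input, the lowest fold of the 10 (log2 -1.57, SE 0.15, edgeR adjusted p = 1.91e-07) and ranked 516 from the lowest of the 6376 genes tested. The mRNA of erg32 stood at 97.45 and 93.6 CPM in the Slr1p IP, against 155 and 121 CPM in input. The groups of both genes did not overlap. The erg32 fold was 0.692 (log2 -0.53, SE 0.13, edgeR adjusted p = 0.0021), a call lost without Slr1p IP replicate 2 (-0.51, edgeR adjusted p = 0.06). Per kb of transcript, erg32 exceeded erg31 by ratios of 3.98 and 4.76 in the Slr1p IP, 2.43 in IgG, and 2.07 and 2.14 in input. The ratio was thus higher in both Slr1p IP libraries than in the other 3, a difference that was not tested.

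The sequences of the pair bear on whether reads could be shared between them. Of 887 aligned coding bases 64.0% were identical, and the longest identical run in the annotated transcripts was 15 nt. Stretches that match with mismatches were not searched. The 15 nt run, in capitals, is shown with 10 bases on each side, 5′ to 3′ on the coding strand (RefSeq, ASM294v3).
erg31: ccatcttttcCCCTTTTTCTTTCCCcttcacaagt
erg32: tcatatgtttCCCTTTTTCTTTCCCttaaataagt
The reads were 50 bp long, and 0 of the 50-base words of any of the 10 transcripts occurred a second time in that assembly.

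Both regulators were lower in the Slr1p IP than in input. The mRNA of sre1, the SREBP homolog, stood at 64.0 and 62.9 CPM in the Slr1p IP, against 93.3 and 85.02 CPM in input. The fold was 0.712 (log2 -0.49, SE 0.12, edgeR adjusted p = 0.00157), a call lost without Slr1p IP replicate 2 (-0.49, adjusted p = 0.0708). The mRNA of scp1, the SCAP homolog, stood at 64.2 and 63.9 CPM in the Slr1p IP, against 136.5 and 130.1 CPM in input. It fell to 0.481 of input (log2 -1.06, SE 0.12, edgeR adjusted p = 8.84e-07), and was called in every alternative fit of this comparison. In neither case did the groups overlap.

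**Figure D2:**
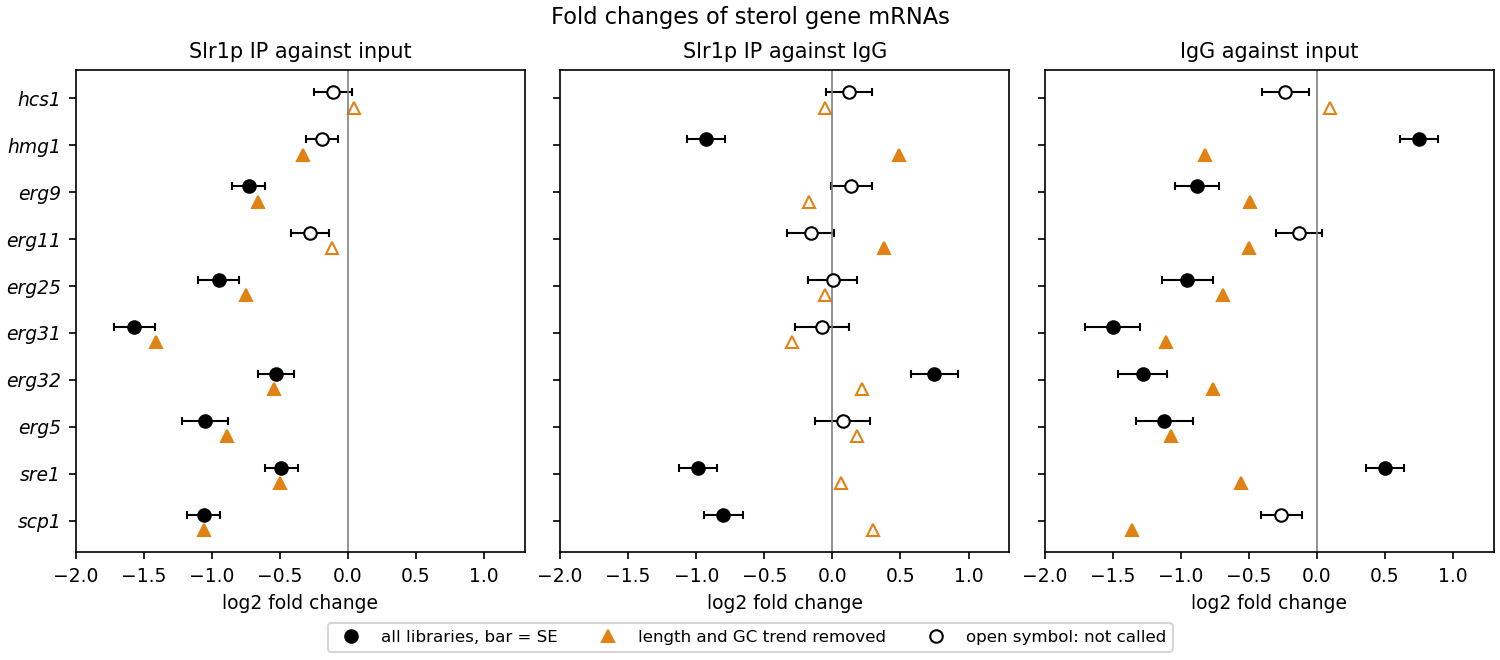
Log2 fold changes of the 10 genes in 3 comparisons. Black circles are fits to all libraries with bars of 1 SE, orange triangles the fits corrected for length and GC content, and open symbols genes not called at an adjusted p under 0.05. Against input all black circles lie below 0, whereas against IgG 7 genes (hcs1, hmg1, erg9, erg11, erg25, sre1 and scp1) change side with that correction.

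IgG served as the background of the immunoprecipitation, known here from 1 library. Sterol gene mRNAs did not stand out above IgG as a group. Only erg32 was higher, while hmg1, sre1 and scp1 were lower and 6 were not called. Over all genes tested 34.0% were higher and 32.3% lower. The median log2 fold change was -0.037 over the 10 genes and 0.072 over all genes tested. This comparison shares its Slr1p IP libraries with the one against input, so they are not independent. IgG exceeded both Slr1p IP libraries for hmg1, erg11, sre1 and scp1, 4 of the 10, against 45.7% of all genes tested.

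The mRNA of erg32 stood at 97.45 and 93.6 CPM in the Slr1p IP, against 56.6 CPM in IgG (95% Wilson interval 52.8 to 60.8 CPM). IgG lay below both Slr1p IP libraries, and the difference was called (log2 0.75, SE 0.17, edgeR adjusted p = 0.00127). The other desaturase mRNA, erg31, stood at 29.7 and 23.85 CPM in the Slr1p IP, with IgG between them at 28.25 CPM (25.6 to 31.2 CPM). The mRNAs of hcs1, erg9, erg11, erg25 and erg5 had log2 fold changes between -0.16 and 0.14 against IgG, with edgeR adjusted p between 0.418 and 0.991. For erg25 the 327 and 322 CPM of the Slr1p IP compare with 324 CPM in IgG, and for erg5 524 and 561 CPM compare with 515 CPM. IgG was thus close to the Slr1p IP for both of these late enzymes, and below both input libraries.

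The members with the longest transcripts were those lower than in IgG. The mRNA of hmg1, of 4277 nt, stood at 138 and 137 CPM in the Slr1p IP, against 262 CPM in IgG (254 to 271 CPM). IgG was well above both (log2 fold change -0.93, SE 0.14, edgeR adjusted p = 3.08e-05). The mRNA of sre1, of 3298 nt, stood at 64.0 and 62.9 CPM in the Slr1p IP, against 126 CPM in IgG (120.3 to 132 CPM), a log2 difference of -0.99 (SE 0.14, edgeR adjusted p = 1.84e-05). The mRNA of scp1, of 3680 nt, stood at 64.2 and 63.9 CPM in the Slr1p IP, against 111 CPM in IgG (106 to 117 CPM), a log2 difference of -0.80 (SE 0.14, edgeR adjusted p = 1.40e-04). No other member exceeded 2502 nt, the length of erg11.

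Fold change against IgG moved with transcript length over all genes. The 772 protein-coding genes over 3000 nt had a median log2 fold change of -1.30 (quartiles -1.91 and -0.82), so hmg1 (-0.93) and sre1 (-0.99) lay between that median and the upper quartile and scp1 (-0.80) just above the upper quartile. The 2097 genes under 1500 nt had a median of 0.76 (quartiles 0.25 and 1.22), which was close to the value of erg32. The other member of that band, erg9 (0.14), lay below its lower quartile. From 1500 to 3000 nt the median was -0.28 (quartiles -0.74 and 0.18). There hcs1 (0.12), erg5 (0.076), erg25 (0.0029), erg31 (-0.076) and erg11 (-0.16) all lay between the median and the upper quartile. After correction for length and GC content, hmg1 was called higher than IgG (0.49, edgeR adjusted p = 0.0111), as was erg11 (0.38, adjusted p = 0.0442). In the same fit sre1 (0.066, adjusted p = 0.728), scp1 (0.30, adjusted p = 0.0925) and erg32 (0.22, adjusted p = 0.267) were not called. Against input the long genes had a median of 0.06, those of 1500 to 3000 nt, the band of hcs1, erg11, erg25, erg31 and erg5, one of -0.22, and the correction kept all 7 calls there and added hmg1. The sign relative to IgG thus changed with the correction for hmg1, erg11, sre1 and scp1, and also for hcs1 (-0.052), erg9 (-0.17) and erg25 (-0.052), which were called in neither fit.

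**Figure D3:**
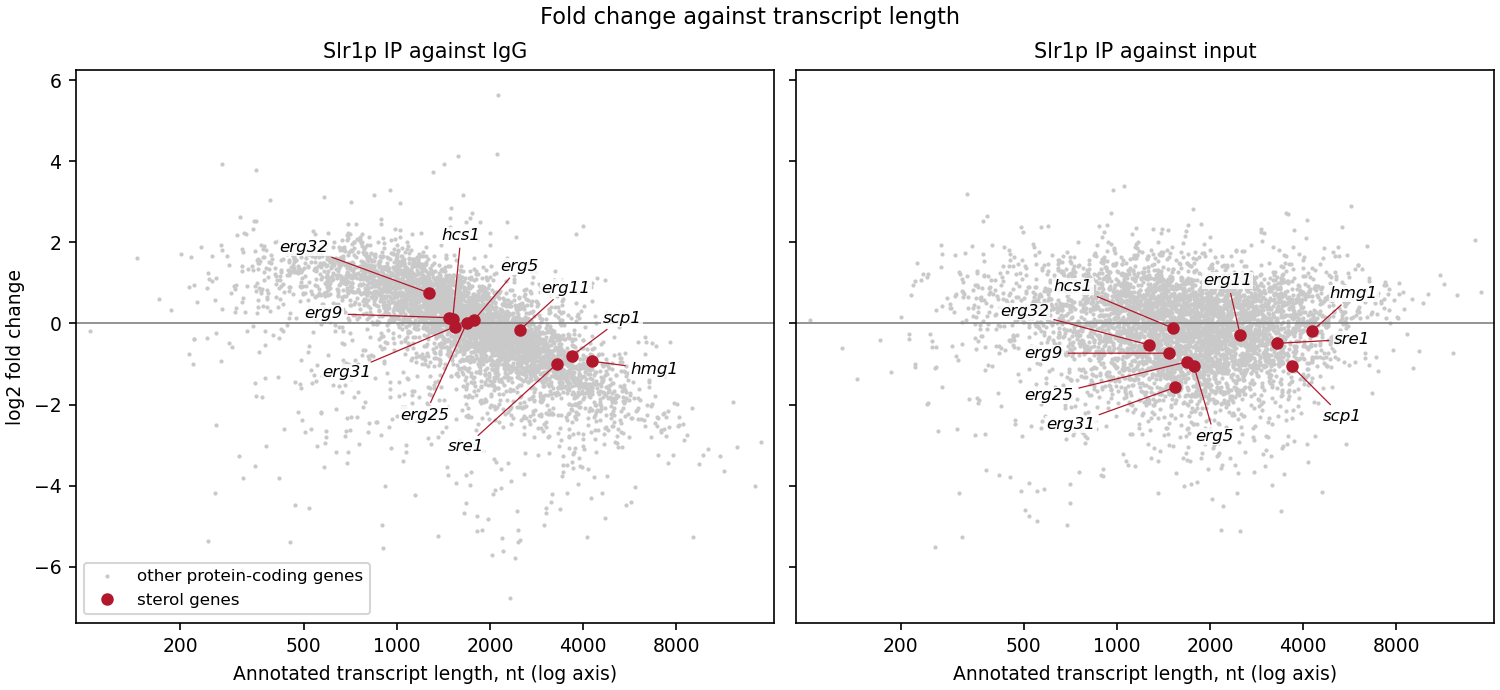
Log2 fold change of the Slr1p IP against IgG (left) and against input (right) by annotated transcript length on a log axis, for protein-coding genes (grey, 44 genes at 0 counts in IgG left out on the left) and the 10 sterol genes (red). Against IgG the grey cloud slopes down and hmg1, sre1 and scp1 sit on its lower right, while against input the medians were 0.091 under 1500 nt, -0.22 from 1500 to 3000 nt and 0.06 over 3000 nt.

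IgG compared with input shows how the same mRNAs behaved in an immunoprecipitation without the Slr1p antibody. In IgG 5 of the 10 were lower than in input and 2 higher, against 36.5% and 34.1% of all genes tested. The lower ones were erg31 at -1.50 (SE 0.20), erg32 at -1.28 (SE 0.18), erg5 at -1.12 (SE 0.21), erg25 at -0.95 (SE 0.19) and erg9 at -0.88 (SE 0.16), as log2 fold changes. All 5 were also lower in the Slr1p IP than in input, where their values were -1.57, -0.53, -1.05, -0.95 and -0.73. These comparisons share the input libraries. The higher ones were hmg1 at 0.75 (SE 0.14) and sre1 at 0.50 (SE 0.14), both long, and after correction for length and GC content both were called lower, at -0.82 and -0.56 (edgeR adjusted p = 1.27e-04 and 0.00297). The mRNA of scp1 was not called at -0.26 (SE 0.15), and was called lower at -1.36 with that correction (edgeR adjusted p = 7.10e-07). Without input replicate 2 the log2 fold change of scp1 was -0.30 and that of hcs1 -0.36.

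A list of 17 other sterol synthesis genes held enzymes and also the P450 partner dap1. Of these, 8 were lower and 3 higher in the Slr1p IP than in input, against 34.2% and 35.0% of all genes tested. The list's median log2 fold change was -0.22, and that of all genes tested 0.035. In IgG against input 11 of the 17 were lower and 1 higher, against 36.5% and 34.1% of all genes tested, with a median of -0.88. The mRNA of erg4, for the last reductase of ergosterol synthesis, averaged 80.6 ± 0.384 CPM in the Slr1p IP and 278 ± 37.1 CPM in input (SD, n = 2 each), the lowest fold of the list (log2 -1.78, SE 0.13, edgeR adjusted p = 9.18e-09). The C-3 dehydrogenase mRNA erg26 (-1.76), the sterol isomerase mRNA erg2 (-1.52) and the ketoreductase mRNA erg27 (-1.23) were also lower. The mRNA of idi1, for isopentenyl diphosphate isomerase of the early pathway, was lower at -0.39, and that of dap1, a haem-binding partner of sterol P450 enzymes, was higher at 0.37. Both calls were lost when either Slr1p IP replicate was left out (edgeR adjusted p between 0.106 and 0.229). The other higher ones were erg7 (0.64), for lanosterol synthase, and erg8 (0.51), for phosphomevalonate kinase, named here after their values were seen. Without Slr1p IP replicate 1 only erg7 was called higher, and without input replicate 2 erg1 and erg12 made the higher genes 5.

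Against IgG 10 of the same 17 genes were higher and 1, erg7 (-0.41), was lower, against 34.0% and 32.3% of all genes tested. The erg7 call was lost without either Slr1p IP replicate. The list had a median log2 fold change of 0.61 against IgG. Among the named genes erg2 was at 1.42 (SE 0.18, edgeR adjusted p = 6.42e-06), dap1 at 1.26, erg4 at 1.12, idi1 at 0.97 and erg26 at 0.61. The erg26 call was lost without either Slr1p IP replicate (edgeR adjusted p = 0.0908 and 0.0735), and erg27 was not called at 0.17. After correction for length and GC content idi1, with a transcript of 921 nt, was at 0.10 and not called (edgeR adjusted p = 0.578). In that fit dap1 (0.33, adjusted p = 0.0899) and erg26 (0.35, adjusted p = 0.0727) also lost their calls, while erg2 and erg4 kept theirs.

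**Figure D4:**
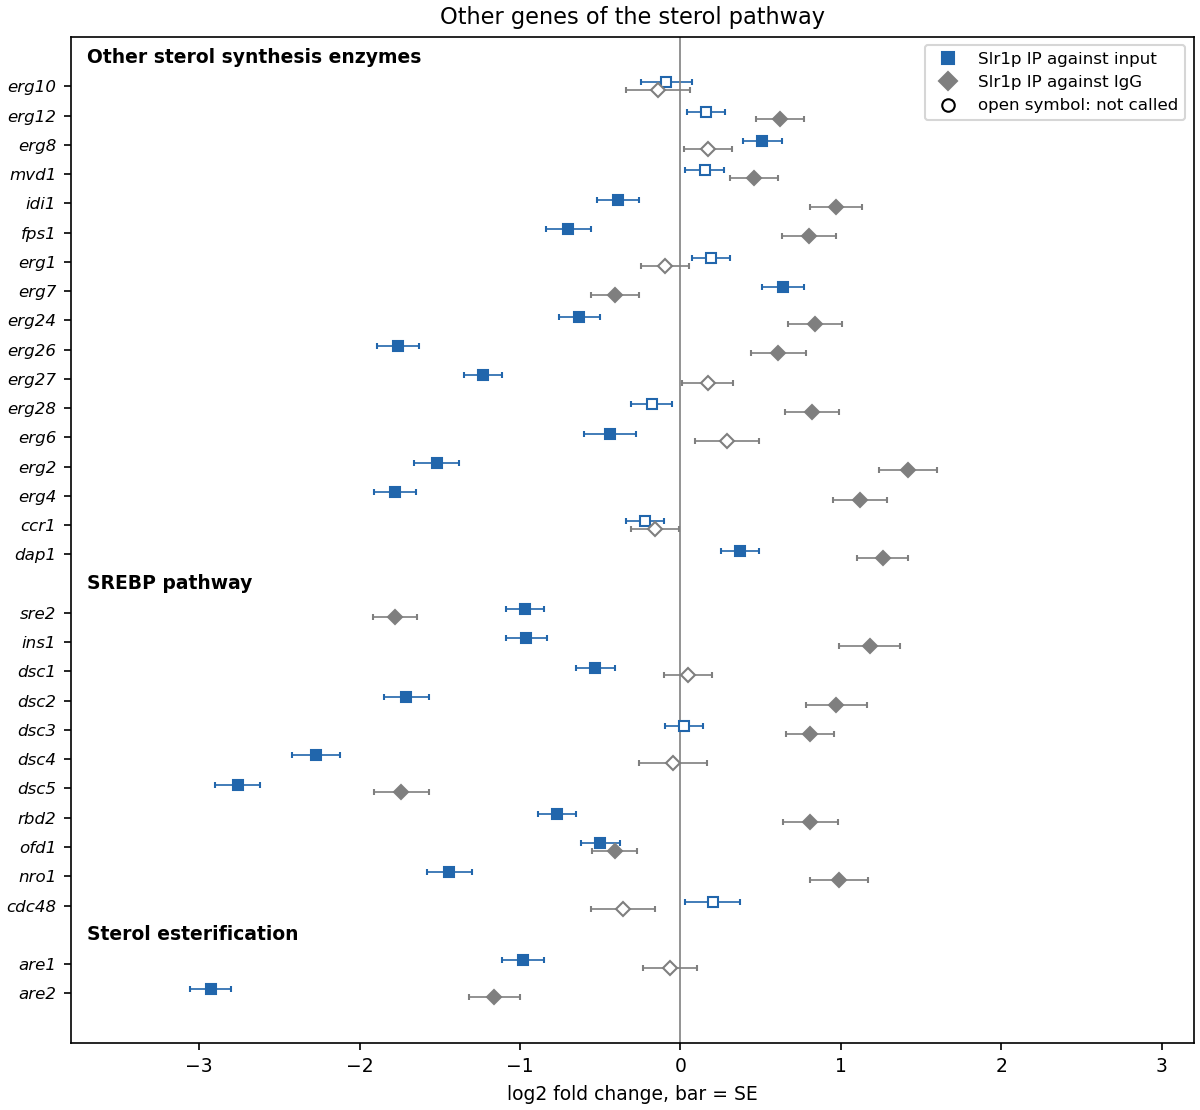
Log2 fold changes with bars of 1 SE for 17 other sterol synthesis genes, 11 SREBP pathway genes and 2 sterol esterification genes, with the Slr1p IP against input as blue squares and against IgG as grey diamonds, open where not called. Most blue squares of the SREBP pathway lie left of 0, with dsc5 (-2.76) and dsc4 (-2.27) farthest, while are2 (-2.93) is the lowest of all.

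Of 11 genes of the SREBP pathway 9 were lower and 0 higher in the Slr1p IP than in input (edgeR, 0 at an unadjusted p under 0.05 and 0 by DESeq2), against 34.2% and 35.0% of all genes tested. Their median log2 fold change was -0.96. The others were dsc3 (0.022) and cdc48 (0.20), and cdc48 was called higher without input replicate 2. The Dsc ubiquitin ligase is needed for cleavage of Sre1. Its subunit mRNAs dsc5, dsc4 and dsc2 were at -2.76 (SE 0.14), -2.27 (SE 0.15) and -1.71 (SE 0.14). Its other listed subunits were dsc1 at -0.53 (SE 0.12), named after its value was seen, and dsc3, given above. The dsc5 mRNA stood at 8.63 and 8.5 CPM in the Slr1p IP, against 63.4 and 52.6 CPM in input. The mRNA of nro1, which regulates degradation of the Sre1 N-terminal domain through Ofd1, was at -1.44. That of sre2, a paralog of Sre1, was at -0.97, and that of ins1, the homolog of mammalian INSIG, at -0.96. In IgG against input 8 of the 11 genes were lower and 2 higher, against 36.5% and 34.1% of all genes tested, with a median of -1.02.

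Against IgG 5 of this list were higher and 3 lower, against 34.0% and 32.3% of all genes tested, with a median log2 fold change of 0.046. The mRNAs of ins1 (1.18), nro1 (0.99) and dsc2 (0.97) were higher, dsc5 (-1.74) and sre2 (-1.78, transcript of 4166 nt) were lower, and dsc4 was not called (-0.046, edgeR adjusted p = 0.857). The third lower one, ofd1 (-0.41), named after its value was seen, lost its call without either Slr1p IP replicate and after correction for length and GC content. With that correction sre2 was at -0.42 (edgeR adjusted p = 0.0173) and ins1 at 0.59 (adjusted p = 0.0123), while dsc3 and rbd2 were no longer called higher and cdc48 and dsc1 were. Of the sterol acyltransferase mRNAs, which store sterol as esters, are2 stood at 14.4 and 13.1 CPM in the Slr1p IP, against 112 and 97.5 CPM in input (log2 fold change -2.93, SE 0.13, edgeR adjusted p = 9.47e-11). It was also lower than in IgG, at -1.16. The are1 mRNA was lower than input at -0.98 and not called against IgG at -0.066. In IgG against input are2 (-1.77) and are1 (-0.91) were both lower. Of all named genes of these lists, dsc5, sre2 and are2 were lower in the Slr1p IP than in both input and IgG, as was ofd1 with all libraries and no correction.

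Among the 10 genes themselves, erg25 and erg5 had the most similar profiles over the 5 libraries, with a root mean square difference of 0.078 in log2(CPM + 1) centred on each gene's mean. The pair hmg1 and erg31 was the least similar, at 0.868. Outside the 10, the closest protein-coding profiles were those of sal3 and pwp2 for hmg1 (0.025 and 0.026), gsk31 and arg12 for erg5 (0.025 and 0.032), mae2 and rrn6 for erg11 (0.028 and 0.031), and mug160 and mdm34 for erg9 (0.029 and 0.030). For scp1 they were aly2 and aly3 (0.033 and 0.034), for sre1 sec26 and atp1 (0.040 and 0.046), and for erg32 mrpl37 and emc7 (0.037 and 0.047). For erg25 they were SPAC694.04c and ctl1 (0.042 and 0.055), for erg31 rav2 and pfa3 (0.043 and 0.082), and for hcs1 SPBPB2B2.18 and leu5 (0.052 and 0.053). With only 5 libraries of 3 kinds, profiles this close are a description of these libraries.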

How the data were processed

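Each library has 1 deposited file of raw counts for 6727 genes, with 0 summary lines. The submitters' processing notes list Trim Galore, STAR 2.6.0c and HTSeq 0.6.1p2 among the authors' tools, without their roles. The kit was directional, per the labels' protocols. How multiply mapped reads and strand were handled, and on which build and annotation, is not given in the sources used here.

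Identifiers were matched to RefSeq (ASM294v3, 6558 matched) for names, lengths and sequences. No coordinates are printed. The main test was the quasi-likelihood test of edgeR 4.0.16 in R 4.3.3, fitted to the counts of all 5 libraries with TMM scaling and the package's expression filter, which left 6376 genes. The fit had 2 residual degrees of freedom, and IgG, with 1 library, was assumed to vary like the pairs. Benjamini-Hochberg adjustment ran over all genes tested, and an adjusted p under 0.05 is a call. The test was checked on simulated counts in which all libraries, IgG included, had the same spread and a small set of genes was changed. That check cannot show how the test behaves where IgG varies more or differs in composition. Alternatives were DESeq2 1.42.0, library totals, no filter, leaving out each replicate, a replicate block, a fit without IgG, and removal of a loess trend with length and GC content. A fit to protein-coding genes only was added after seeing the data. All 10 sterol genes are named. Of each pathway list, up to 6 genes called in the Slr1p IP against input or IgG are named, those with the largest absolute log2 fold change in either. The genes and lists were chosen with earlier results of these data known.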

Additional observations from a re-analysis of the deposited data

How the results depend on the processing

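After correction for the trend with length and GC content, the sterol genes higher and lower in the Slr1p IP than in IgG numbered 2 and 0, with a median log2 fold change of 0.12, and in IgG against input 0 were higher and 9 lower, with a median of -0.73. In that fit hmg1 (0.49), erg11 (0.38), sre1 (0.066) and scp1 (0.30) changed sign against IgG, and hmg1 (-0.82), sre1 (-0.56) and sre2 (-0.67) in IgG against input, each called in at least 1 of the fits. Called in neither fit, hcs1 (-0.052), erg9 (-0.17) and erg25 (-0.052) changed sign against IgG, as did hcs1 against input (0.043) and in IgG against input (0.095). Over all genes in that fit, 1408 were higher and 1556 lower in the Slr1p IP than in IgG. In IgG against input 2157 were higher and 2018 lower. The number of genes in that fit is not given here, so these are counts and not shares. The trend was fitted over all genes, the sterol genes included.

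Against input, outside the fits that left out a replicate, 0 sterol genes were higher and 7 or 8 lower. In the fits that left out a replicate the median of the 10 genes lay between -0.75 and -0.56. With the replicate block 7 were lower, with a median of -0.63. The titles number the Slr1p IP and input libraries alike, but do not say whether libraries of the same number share a culture. In the main fit the numbers were not taken to pair the libraries. The replicate deviations of Slr1p IP and input correlated at -0.0347 over genes, which does not settle whether they are paired. Against IgG no block could be fitted, as that library carries no number. The dap1 call against input was also lost with library totals (adjusted p = 0.0898) and after that correction (0.0853). Scaling by library totals moved the median of all genes against IgG to -0.047, against 0.072 with TMM. Of 290 alternative values over the 10 genes, 257 kept their sign and side of the threshold, 10 gained a call, 3 lost one and 20 changed sign, 14 of them called in neither fit. Fits without 1 library had 1 residual degree of freedom and took the spread from the remaining pair alone, so their calls do not compare like with like. The IgG library could not be left out of its own comparisons, so those rest on a single control of lower depth.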

Other observations

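Some annotated transcripts overlap the sterol genes, and 4 of them were counted in the files. They were chosen for their position, after the values of the sterol genes were seen. The noncoding RNA SPNCRNA.1205 lies on the same strand as hmg1 and overlaps the first 26 nt of its annotated transcript. It had 7 and 16 counts in the Slr1p IP, 34 in the shallower IgG library, and 176 and 178 in input. Its log2 fold change was -3.95 against input (SE 0.33, edgeR adjusted p = 4.93e-08) and -3.75 against IgG (SE 0.49, adjusted p = 6.96e-06), whereas hmg1 itself was at -0.19 against input.

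On the opposite strand, mis19 overlaps 182 nt at the 3′ end of erg32 and was higher in the Slr1p IP, at 37.2 and 35.7 CPM, than in IgG, at 14.9 CPM, and input, at 11.8 and 12.9 CPM. Its log2 fold change against input was 1.56 (SE 0.13, edgeR adjusted p = 4.46e-08), while erg32 was at -0.53. The pla1 mRNA, which overlaps 45 nt of erg9, was at 0.43 against input (SE 0.13, adjusted p = 0.00644). The noncoding RNA SPNCRNA.843 is antisense to 55.7% of the hcs1 transcript and had 64 and 90 counts in the Slr1p IP, 10 in IgG, and 26 and 35 in input, against at least 5141 for hcs1 in any library. Whether reads were assigned by strand is not given in the sources used here, so the part of such overlaps in the counts was not tested.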
